A study of Mus musculus with 9 samples.

Results

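The genes described here encode the proteins of the cytoplasmic ribosome. Their symbols start with Rpl (large subunit) or Rps (small subunit) and a digit, or are Rplp0, Rplp1, Rplp2 or Rpsa. With processed pseudogenes, the Rps6k kinases and Rps19bp1 set aside, the table held 85 genes with such names, and 77 were left without 8 paralogs, and 76 of these had a mean normalised read count of 10 or more over the 9 libraries. These 76 genes, 45 of the large and 31 of the small subunit, are the members, out of 23420 genes in all. The remaining gene, Rpl26, was listed at 0 in each of the 9 libraries. RNA was sequenced from regulatory T cells (Tregs) of mice labelled wild type in 3 groups of 3 libraries: Tregs from the synovium of mice with collagen-induced arthritis, Tregs from the draining lymph nodes of mice with collagen-induced arthritis, and Tregs from the draining lymph nodes of mice given no treatment. Collagen-induced arthritis is an autoimmune joint disease raised by immunisation with collagen. Paws and nodes of all 3 groups were enzymatically digested, and the cells were sorted on a YFP reporter of Foxp3, the transcription factor that defines Tregs, so mice of all 3 groups carried that reporter and the gate depends on it. The libraries labelled synovium came from digested paws. The titles number mice 1 to 3 with arthritis, each of which gave a synovial and a node library, and control mice 1 to 3, so the 9 libraries came from 6 mice. No strain, age or immunisation day was given in the sources used here. The question put to the ribosomal protein genes was how their RNA differed between synovial and node Tregs of arthritic mice (the tissue comparison), between node Tregs of arthritic and untreated mice (the disease comparison), and between synovial Tregs and node Tregs of untreated mice, which differ in both respects.

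A ribosome joins a small subunit, which decodes the messenger RNA, to a large subunit, which forms the peptide bond, and nearly all of its proteins are made in equal numbers. Messenger RNAs of ribosomal proteins begin with an uninterrupted run of pyrimidines (a terminal oligopyrimidine tract), through which mTOR signalling and the RNA-binding protein Larp1 adjust their translation and stability. In T cells, activation raises the production of ribosomes, which is costly and is driven in part by Myc.

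The start region of 7 members is shown because such a pyrimidine run would lie there, and because the genes span the range of the results: Rps18, Rpl35 and Rps7 had some of the largest decreases in synovium, Rps6 lay near the middle, Rpl38 had one of the smaller decreases, and Rps27 and Rpl34 were not lower. The sequences were taken from RefSeq on GRCm38.p6 and run from 70 bases before the annotated transcription start to 25 bases from it. Capitals mark the longest run of C and T in each window. The coordinates are chr17:33955641-33955735 (minus strand) for Rps18, chr2:39005107-39005201 (minus) for Rpl35, chr12:28635929-28636023 (minus) for Rps7, chr4:86857343-86857437 (minus) for Rps6, chr11:114668510-114668604 (plus) for Rpl38, chr3:90213624-90213718 (minus) for Rps27 and chr3:130730374-130730468 (minus) for Rpl34.
Rps18: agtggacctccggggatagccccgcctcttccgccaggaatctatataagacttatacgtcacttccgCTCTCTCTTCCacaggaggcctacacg
Rpl35: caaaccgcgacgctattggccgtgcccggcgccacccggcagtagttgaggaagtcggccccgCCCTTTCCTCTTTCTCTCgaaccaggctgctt
Rps7: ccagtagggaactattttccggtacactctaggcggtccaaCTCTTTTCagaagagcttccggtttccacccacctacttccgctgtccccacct
Rps6: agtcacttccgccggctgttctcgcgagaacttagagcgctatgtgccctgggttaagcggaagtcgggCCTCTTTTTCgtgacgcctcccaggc
Rpl38: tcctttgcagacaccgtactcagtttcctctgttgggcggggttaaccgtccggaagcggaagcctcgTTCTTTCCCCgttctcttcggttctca
Rps27: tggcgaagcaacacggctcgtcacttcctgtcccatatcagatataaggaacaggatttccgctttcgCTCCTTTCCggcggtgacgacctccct
Rpl34: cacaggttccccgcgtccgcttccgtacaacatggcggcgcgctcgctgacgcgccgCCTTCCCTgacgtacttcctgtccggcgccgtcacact
In Rps18, Rpl35, Rps6, Rpl38 and Rps27 the marked run spans the annotated start itself, beginning 1 to 7 bases before it. In Rps7 it lies 29 bases and in Rpl34 13 bases before the start. In these windows Rps7 and Rpl34 each had a run of 8 bases, Rps27 one of 9 and Rps18 one of 11, and another annotated start of Rpl34 had a run of 20 bases near it.

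RefSeq start regions were taken for 56 of the 76 members, in 66 windows because some genes have several annotated starts. Chromosome 18, where Rps14 and Rpl17 lie, was left out of the member windows and of all windows alike. A pyrimidine run of 10 or more bases was sought between 60 bases before and 50 bases after the start. It was present in 48 of the 66 windows (72.7%), against 19.9% of the 32851 windows of all genes on the other chromosomes. The letters CTTTCC stood in the same stretch, on the gene's strand, in 30.3% of member windows and 5.06% of all windows, and CTCTTTC in 19.7% and 1.498%. CTTCCGG, searched on both strands from 250 bases before to 50 after the start, was present in 36.4% of member windows and 8.86% of all windows. CGCGAGA, searched the same way, was present in 21.2% and 2.56%, and CCATCTTG in 7.58% and 2.12%. TATAAA, the core promoter element, was present on the gene's strand in 7.58% of member windows and 8.32% of all windows. Motifs may overlap each other, and a match is a run of letters, not a measured site.

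The 9 libraries held 11300406 to 12855435 reads assigned to genes, recovered from the normalised values, and 11770 to 13118 genes with at least 1 read. Foxp3 was detected in each library (413 to 538 in synovium, 222 to 294 in arthritic nodes, 170 to 404 in control nodes), as were Cd3e and Cd4. Il2ra, Ctla4 and Ikzf2, which Tregs express strongly, were higher in synovium than in arthritic nodes (3 of 6 Treg markers called higher, none lower). Clec9a and Ncr1, which mark dendritic and natural killer cells, were at 0 in each library. Together with Cd8a, Cd8b1 and Klrb1c, Ncr1 formed a list of CD8 T and natural killer cell markers. That list summed to 0.000789 to 0.00169% of the counts in synovium, 0.00135 to 0.0028% in arthritic nodes and 0.000917 to 0.00146% in control nodes. Of its 4 genes 2 passed the filter, and neither was called in any comparison. The 4 B cell markers summed to 0.00147 to 0.00255% of the counts in synovium, against 0.0036 to 0.00576% in arthritic nodes and 0.00389 to 0.00458% in control nodes; of them Cd79b, part of the B cell receptor, was lower in synovium than in arthritic nodes (-0.93, limma adjusted p = 0.018). Of the endothelial markers Kdr was at 0 in each library and Pecam1, an adhesion molecule that T cells also express, was lower in synovium (-0.76, limma adjusted p = 0.000687). Lyz2 of macrophages (-3.19, limma adjusted p = 0.11) and Cpa3 of mast cells (-2.69, limma adjusted p = 0.0502) did not pass, and the mast cell markers Mcpt4 and Cma1 were at 0 throughout. Fibroblast markers (6 genes, among them Col1a1 and Dcn) summed to 0.0125% of synovial library 3, and to at most 0.00142% of each of the other 8 libraries, and 67 members were called lower in the tissue comparison without that library. Xcr1, a chemokine receptor used as a dendritic cell marker, had 307, 540 and 471 in synovium, against 23.5, 20.2 and 19.2 in arthritic nodes, while the other 3 dendritic markers summed to at most 45.2 in a library. Of 9 genes induced by stress and tissue dissociation, such as Fos and Hspa1a, 7 were higher in synovium than in arthritic nodes, with a median log2 fold change of 5.06. Those 9 genes took 0.613, 0.542 and 0.867% of the normalised counts in synovium, against 0.0889, 0.0727 and 0.0563% in arthritic nodes and 0.0836, 0.0809 and 0.0566% in control nodes. The part of these markers and genes in the results on ribosomal protein genes was not tested.

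The ribosomal protein genes together took a smaller part of the RNA in synovial Tregs. Their share of all normalised counts was 2.58, 2.10 and 2.24% in the 3 synovial libraries, 4.76, 4.96 and 4.66% in arthritic nodes and 5.05, 5.38 and 4.94% in control nodes. The synovial libraries did not overlap with the node libraries, whereas the highest arthritic node library lay above the lowest control node library. The mean share was 2.31 ± 0.247% in synovium, against 4.79 ± 0.153% in arthritic nodes and 5.12 ± 0.229% in control nodes (SD, n = 3 each), which puts the synovial share at 0.482 of that in arthritic nodes and 0.451 of that in control nodes. In bulk libraries, fewer cells of a type and less RNA per cell cannot be told apart. The large subunit genes summed to 1.439, 1.503 and 1.472 times the small subunit genes in synovium, against 1.428, 1.418 and 1.399 times in arthritic nodes and 1.421, 1.387 and 1.395 times in control nodes. Each synovial ratio lay above the 6 node ratios, a difference that was not tested. Because a share also depends on the counts of all other genes, and the normalised counts of the synovial libraries summed to a larger total, the shares differ more than the values of single genes given next.

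**Figure D1:**
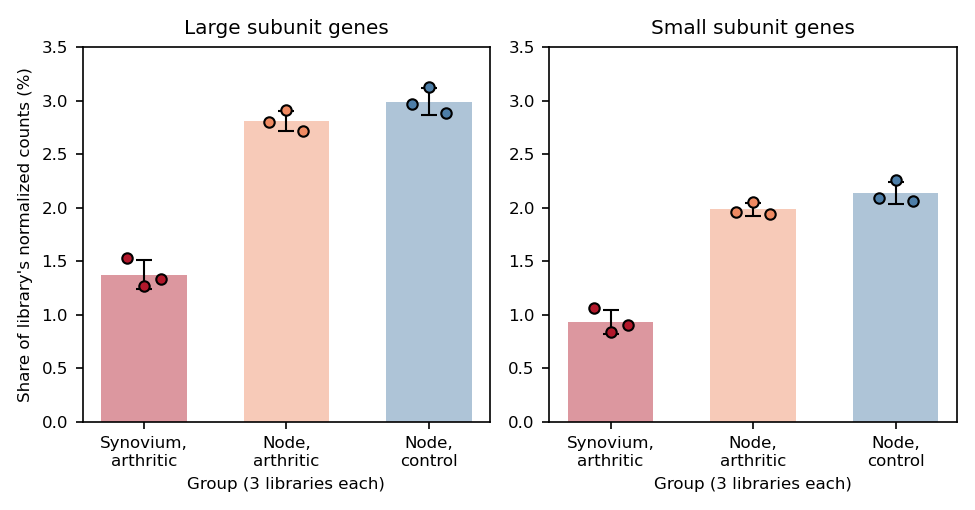
Share of each library's normalised counts (percent, axis from 0) taken by the 45 large subunit genes (left) and the 31 small subunit genes (right) in synovial arthritic, arthritic node and control node Tregs. Points are libraries, bars are means and error bars are SDs over 3 libraries. In both panels the 3 synovial points lie below the 6 node points.

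Gene by gene, 70 of the 76 members were lower in synovial than in arthritic node Tregs and none was higher (limma on log2(normalised value + 1), Benjamini-Hochberg adjusted p under 0.05 over 11357 genes). Among all genes tested, 15.9% were called lower and 17.9% higher, and among well-expressed genes (mean of at least 1000) 21.3% were called lower. The median log2 fold change of the members was -0.72, with an interquartile range from -0.83 to -0.54, which is a 1.65-fold lower level. The median of all genes was -7.25e-05. With CPM scaling, 70.7% of the calls over all genes were decreases, against 47.1% of those on the deposited scale and 57.8% with quantile scaling, and 73 members were called lower with CPM and with quantile scaling alike. In 73 members the 3 synovial values lay below the 3 arthritic node values, as they did in 23% of all genes. All 68 members with a mean of at least 1000 were called lower. In the authors' deposited table of the same comparison, 70 of the 76 members had an adjusted p under 0.05 and a lower value in synovium, against 14.1% of its 13116 genes with an adjusted p, and the 70 genes were the same.

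**Figure D2:**
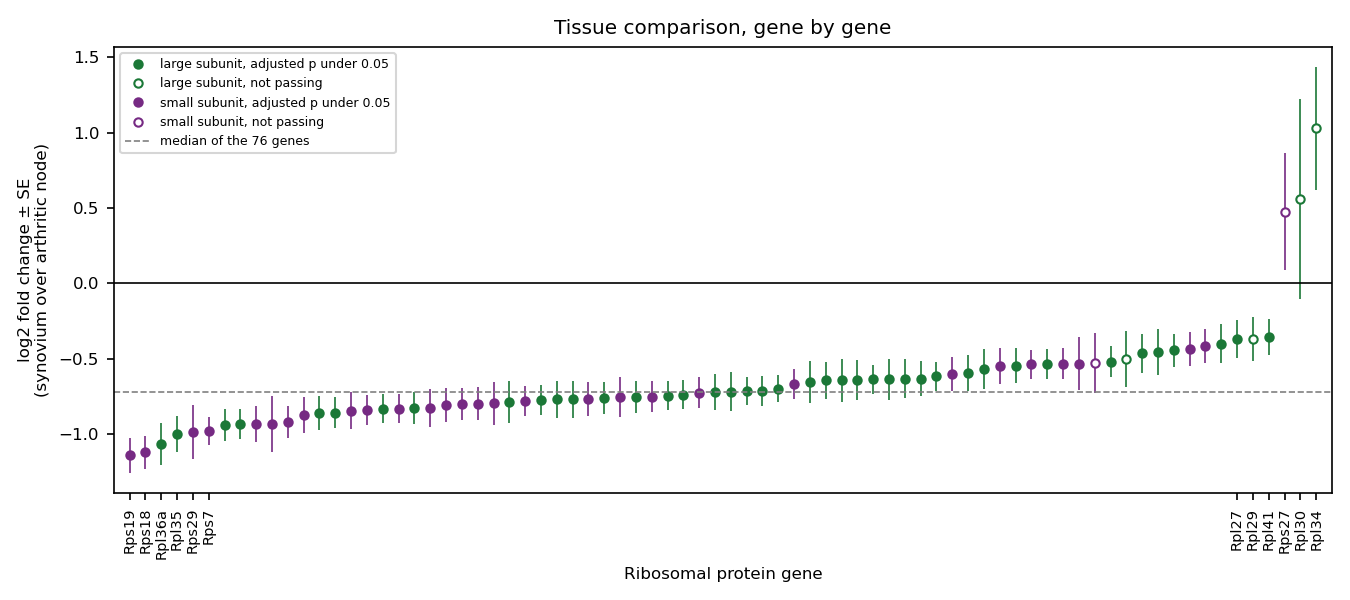
Log2 fold change (synovium over arthritic node, vertical axis) with its standard error for each of the 76 ribosomal protein genes, ordered from Rps19 at -1.14 to Rpl34 at 1.03, with the 6 genes at each end named. Filled points passed an adjusted p of 0.05 and open points did not, colours mark the subunits, and the dashed line is the median of -0.72.

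The decreases were largest for Rps19, Rps18, Rpl36a, Rpl35, Rps29 and Rps7. Rps19, a small subunit protein whose loss of a copy causes Diamond-Blackfan anaemia in humans, had 11045, 8278 and 8927 normalised counts in synovium, against 19603, 22630 and 19697 in arthritic nodes and 22195, 24200.3 and 21581 in control nodes. Rps18, at the head of the small subunit, had 7733, 6511 and 5919.8 in synovium, against 14565, 15166 and 13875 in arthritic nodes and 16104, 17233 and 14999 in control nodes. For both genes the highest synovial value lay far below the lowest node value. The log2 fold change between synovium and arthritic nodes was -1.14 (SE 0.116, limma adjusted p = 1.37e-05) for Rps19 and -1.12 (SE 0.109, limma adjusted p = 9.2e-06) for Rps18, or 2.20-fold and 2.17-fold lower.

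Rpl36a, a large subunit gene on the X chromosome, had 1438, 1027 and 1221 normalised counts in synovium, against 2353, 2946 and 2391 in arthritic nodes and 2781, 2796 and 2657 in control nodes. Rpl35, whose protein sits near the exit of the peptide tunnel, had 7446, 7329 and 6276 in synovium, against 12851, 15980.0 and 13362 in arthritic nodes and 16782, 16529.5 and 13762 in control nodes. Rps7, another small subunit gene linked to Diamond-Blackfan anaemia in humans, had 6697, 5689 and 6009.7 in synovium, against 12113, 12243 and 11796 in arthritic nodes and 13422, 13946 and 12157 in control nodes. In each of the 3 genes synovial and node libraries were well apart, and their log2 fold changes were -1.07, -1.001 and -0.98, in that order (limma adjusted p = 0.0001, 4.49e-05 and 9.14e-06). Rps29, a small zinc-binding protein of the small subunit, had 959.7, 809 and 833 in synovium, against 1445, 2395 and 1460 in arthritic nodes and 1642, 1624 and 1689 in control nodes. Here arthritic node library 2 stood above the other node libraries, and the log2 fold change of -0.99 carried an SE of 0.18 (limma adjusted p = 0.00115).

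The members Rpl34, Rpl30 and Rps27 had higher means in synovium than in arthritic nodes, and none of them passed the test. Rpl34, of the large subunit, had 148, 132 and 125 normalised counts in synovium, against 55.7, 97.2 and 51.5 in arthritic nodes and 74.3, 102 and 54.8 in control nodes (log2 fold change over arthritic nodes 1.03, SE 0.406, limma adjusted p = 0.0699). Without arthritic node library 2, Rpl34 passed as higher (limma adjusted p = 0.0454, with a range of 0.0369 to 0.185 over the alternatives tried). Rps27, of the small subunit, had 109, 91.6 and 112 in synovium, against 82.6, 61.6 and 81.2 in arthritic nodes and 109, 80.3 and 55.7 in control nodes (0.48, SE 0.389, limma adjusted p = 0.38). Rpl30, of the large subunit, had 24.2, 22.3 and 14.6 in synovium, against 12.2, 14.4 and 13.1 in arthritic nodes and 13.0, 16.2 and 13.7 in control nodes (0.56, SE 0.666, limma adjusted p = 0.555). These are the 3 members with a mean under 200, whereas the median member had a mean of 4159, so their values rest on far fewer reads. All 3 synovial values lay above all 3 arthritic node values in each of them, as in 25.2% of all genes. Rps27 is also the member with the smallest share of sequence of its own, 1.35% of its 50-base windows, which is taken up again with the other copies of these genes. For Rpl30 that share was 23.6% and for Rpl34 49.4%, while Rpl35, with 4.91%, had a mean of 12258. A relation between this share and the level was not tested.

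A further 3 members had lower means in synovium without passing. Rps12, of the small subunit, had a log2 fold change of -0.53 (limma adjusted p = 0.0611), Rpl39, which lines the peptide exit tunnel, of -0.50 (limma adjusted p = 0.0537), and Rpl29 of -0.37 (limma adjusted p = 0.0703). Rpl39 had 732, 473 and 710.2 normalised counts in synovium, against 808, 1042 and 829.9 in arthritic nodes and 918, 1000.3 and 1009.8 in control nodes, so that the libraries did not overlap although the call was missed. The smallest decreases among called members were those of Rpl41 (-0.35, limma adjusted p = 0.0392) and Rpl27 (-0.37, limma adjusted p = 0.0375). Rpl41, the shortest of the ribosomal proteins, had 3024, 2665 and 2642 in synovium, against 3125, 4198 and 3385 in arthritic nodes and 3509, 3679 and 3660.2 in control nodes. Its highest synovial value lay just below its lowest arthritic node value. When the mouse number was added as a block, because synovial and node Tregs of one number came from one mouse, 65 members were called lower, and Rps21, Rpl38, Rpl28, Rpl27 and Rpl41 were not (limma adjusted p = 0.0541, 0.0579, 0.0855, 0.0547 and 0.0796).

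Genes of both subunits were lower. Of the 45 large subunit genes 41 were called lower, with a median log2 fold change of -0.64, and of the 31 small subunit genes 29 were called lower, with a median of -0.79. The difference between the subunits was not tested. Over all 76 members the fold changes had an SD of 0.330, and the median standard error of a single gene was 0.116. The members share their libraries, so this standard error does not measure the spread among them, and it reached 0.666 for Rpl30. Without Rpl34, Rpl30 and Rps27, the members with a mean under 200, the SD of the other 73 was 0.182. Of the 76, 58 lay within 0.25 of the median. To ask which members departed from the shared decrease, each library was rescaled on its median ribosomal protein gene, an analysis chosen after the values had been seen. On that scale Rps19 and Rps18 fell below the median member (limma adjusted p = 0.00903 and 0.0179), and Rplp1, Rps13, Rpl27, Rpl41, Rps27 and Rpl34 lay above it. With this scaling 3.56% of all genes were called lower and 48% higher. These departures were not stable: with the mouse number as a block no member was called below the median member and 2 were called above it, and leaving out single libraries gave 1 to 4 below and 2 to 6 above.

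**Figure D3:**
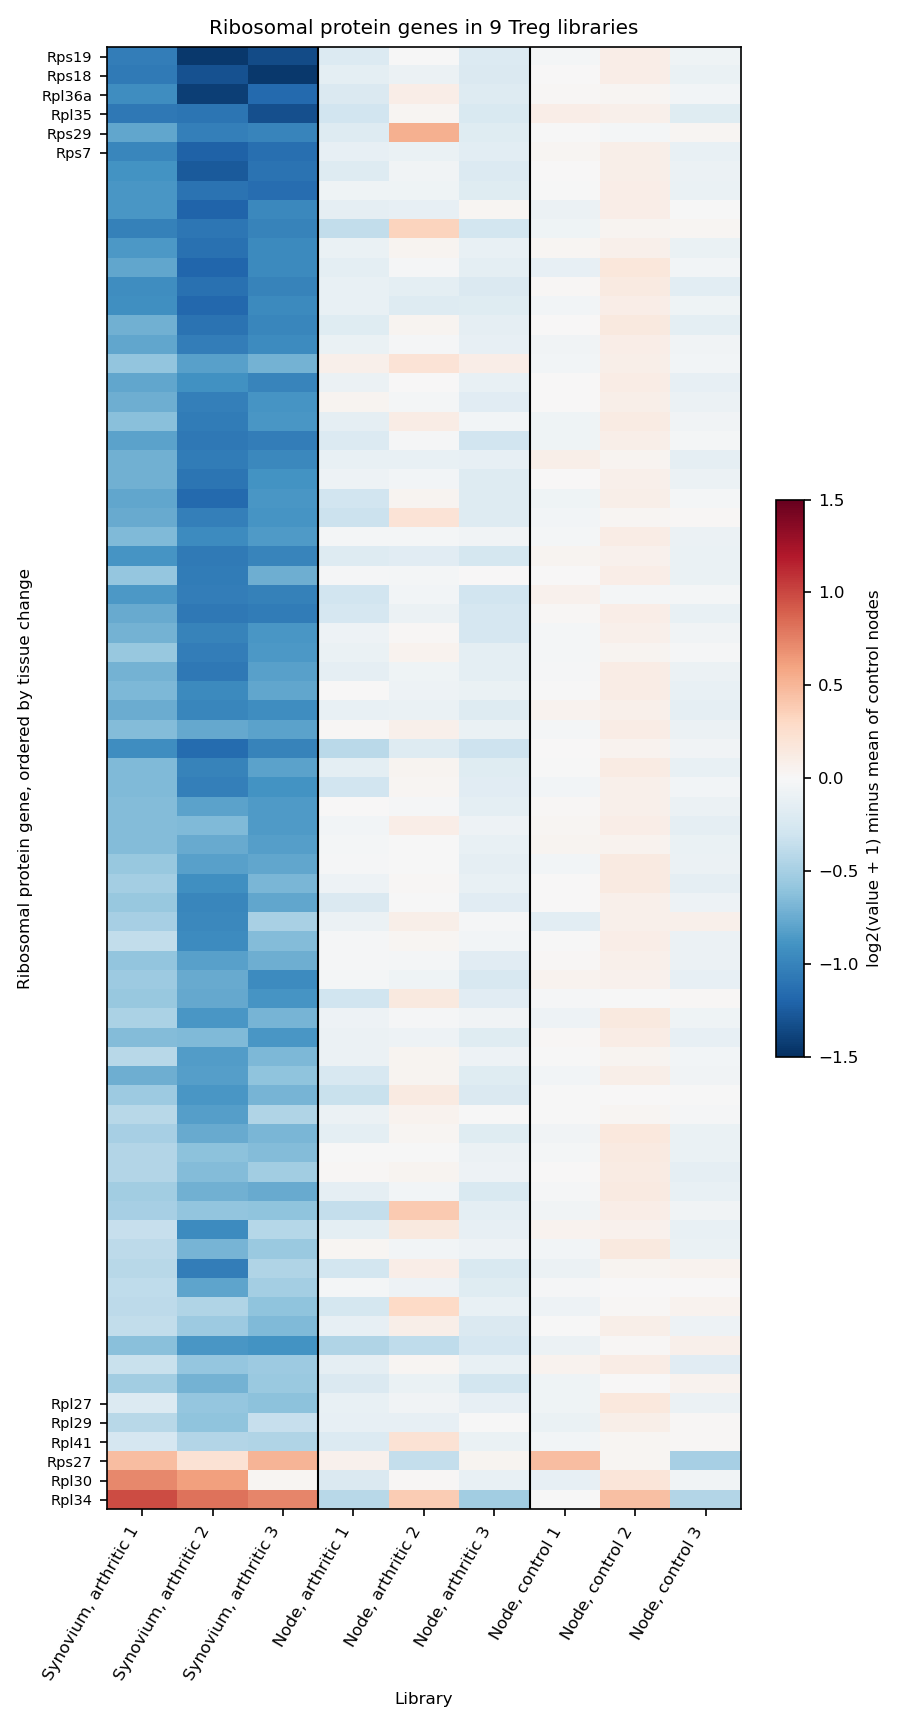
Colours show log2(normalised value + 1) of the 76 ribosomal protein genes in each of the 9 libraries, minus the gene's mean over the 3 control node libraries, with genes ordered by the tissue change and the 6 at each end named. Blue fills the 3 synovial columns in 73 of the 76 genes. Rps27, Rpl30 and Rpl34 at the bottom are red there, except that Rpl30 is close to white in synovial library 3.

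Members with special roles took part in the decrease. The stalk proteins, which recruit elongation factors to the ribosome, were lower by 0.70 on the log2 scale for Rplp0, 0.44 for Rplp1 and 0.64 for Rplp2 (limma adjusted p = 8.05e-05, 0.00861 and 0.00401). Rplp0 had 19866, 18471 and 17673 normalised counts in synovium, against 30708, 31083 and 29023 in arthritic nodes and 32158, 32549.9 and 29319 in control nodes, and it had the smallest standard error of the members, 0.0889. Rpl5 and Rpl11, which can leave the ribosome to bind Mdm2 and thereby stabilise p53, fell by 0.76 and 0.63. Rps6, the substrate of the S6 kinases downstream of mTOR, had 6042, 4980 and 5314 in synovium, against 9422, 9382 and 9205 in arthritic nodes and 9389, 10368 and 9022 in control nodes. Its log2 fold change of -0.78 (SE 0.0989, limma adjusted p = 7.71e-05) was near the members' median.

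Rps3, which lines the entry channel of the messenger RNA, had a log2 fold change of -0.54 (limma adjusted p = 0.00102), Rpsa, also known as the laminin receptor, of -0.55 (limma adjusted p = 0.0038), and Rps14, whose loss of a copy contributes to a human myelodysplastic syndrome, of -0.53 (limma adjusted p = 0.00158). Rpl22, which is needed for the development of alpha-beta T cells in mice, averaged 900.3 ± 62.5 normalised counts in synovium, against 1536 ± 156 in arthritic nodes and 1764 ± 68.6 in control nodes (SD, n = 3 each), a log2 fold change of -0.77 between synovium and arthritic nodes. Rpl13a, which in human myeloid cells also takes part in a translational silencing complex, changed by -0.71. Rpl38, known in mice for the translation of Hox messenger RNAs, changed by -0.46 (limma adjusted p = 0.0384) and was among the calls lost with the block. Rpl10a and Rps25, reported in mouse stem cells to be missing from some ribosomes, changed by -0.77 and -0.76. Rps27a, made as a fusion with ubiquitin, changed by -0.87 (limma adjusted p = 0.000168). The X-linked genes Rpl10 and Rps4x changed by -0.77 and -0.75, near the members' median, with Rpl36a (-1.07) below and Rpl39 (-0.50, not called) above them.

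Per kilobase of coding sequence, Rpl32 (49435 normalised counts per kilobase), Rpl41 (44276), Rps19 (40398) and Rps14 (39965) had the 4 highest levels over the 9 libraries. Rpl32, of the large subunit, had 13566, 10527 and 11705 normalised counts in synovium, against 22094, 24405 and 21944 in arthritic nodes and 25311, 26918 and 23722 in control nodes. Its log2 fold change was -0.94 (limma adjusted p = 3.26e-05), and that of Rpl41 was -0.35. Rpl41 has 75 coding bases in a transcript of 437, whereas Rpl32 has 405 in a transcript of 517. Their levels per coding kilobase are therefore not levels per transcript length, and the rank of Rpl41 depends on its short coding sequence. Across the members, the tissue fold change had a Spearman correlation of -0.37 with the mean level, -0.11 with the coding length and 0.007 with the share of unique sequence (n = 76 genes, which share the same libraries and are not independent). Over the 73 members with a mean of at least 200 these correlations were -0.29, -0.03 and 0.06, in that order. Means without regard to length ran from 16.0 for Rpl30 to 33728 for Rpl4.

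Ribosomal protein genes have many processed copies in the genome, and how reads that match several copies were counted was not given in the sources used here. In GENCODE annotation of the same build, the median member had 39.4% of the 50-base windows of its transcript in no other gene and Rps27, the lowest, had 1.35%. The 76 members shared at least 50 windows with 572 annotated pseudogenes in sum, and 75 of them shared as much with at least 1 other gene. Their levels are therefore uncertain where reads could be split or dropped. The decrease was seen on both sides of this split: of the 26 members with 50% or more of these windows unique 25 were called lower, with a median of -0.76, and of the other 50 members 45 were called lower, with a median of -0.71. The 6 rows of the table named as pseudogenes of a ribosomal protein gene (-ps) had values of at most 119, and pseudogenes listed under other names were not counted. Exons of 8 members, among them Rpl23a, Rpl30, Rpl12, Rpl35, Rpl5, Rpl32 and Rps25, overlap exons of another gene on the opposite strand, and those of 4, Rpl19, Rpl24, Rps10 and Rpl13a, on the same strand. Whether the counting used strand is not given in the sources used here, so reads of such pairs may have been mixed or left out.

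Between node Tregs of arthritic and untreated mice, no member passed the test in either direction. Among all genes, 0.00881% were called lower and 0.335% higher. At an unadjusted p under 0.05, 2 of the 76 members were lower and none was higher, against 3.16% of all genes lower and 5.92% higher, and edgeR and DESeq2 on the recovered reads also called 0 of the members. The members' median log2 fold change was -0.10, against 0.01 for all genes, and 74 of the 76 were below 0, as were 5415 of the 11357 genes tested. Between libraries of a group, the median member had a pooled SD of 0.108 (log2). The members share the same libraries, so their signs are not independent. In 7 members the 3 arthritic node libraries lay below the 3 control node libraries (7.03% of all genes did so), and in none did they lie above (7.89% of all genes did). The values ran from -0.36 for Rps2 to 0.12 for Rpl14.

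Rps2, a small subunit protein at the entry of the messenger RNA, had 2297, 2409 and 2631 normalised counts in arthritic nodes and 2950, 3171 and 3323 in control nodes, groups that did not overlap (log2 fold change -0.36, SE 0.114, limma adjusted p = 0.321). Rps26, near the exit of the messenger RNA, had 4271, 4961 and 4577 in arthritic nodes and 5673, 5884 and 5454 in control nodes (-0.30, SE 0.101, limma adjusted p = 0.358). These are the 2 members with an unadjusted p under 0.05. Rpl10a, Rpl22, Rpl28 and Rps25 followed, with log2 fold changes of -0.21, -0.20, -0.20 and -0.20 and adjusted p values from limma of 0.565, 0.696, 0.738 and 0.675. At the other end, Rpl14, of the large subunit, had 7199, 7895 and 7338 in arthritic nodes and 6642, 7287 and 6649 in control nodes (0.12, limma adjusted p = 0.777). Rps29 was at 0.06, and Rpl18, Rpl19, Rpl13a and Rplp2 lay within 0.01 of 0.

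Synovial Tregs differed from control node Tregs in 73 members, each of them lower (18.5% of all genes were called lower and 21.6% higher). The median log2 fold change was -0.78. This comparison uses the same synovial libraries as the tissue comparison, so that the counts are not independent of each other. The largest decreases were those of Rps19 (-1.28), Rps18 (-1.27), Rpl36a (-1.17), Rpl35 (-1.16), Rps7 (-1.10) and Rpl32 (-1.09), and the limma adjusted p ranged from 2.46e-06 for Rps18 to 3.63e-05 for Rpl36a among these 6. Rpl27 (-0.47), Rpl29 (-0.45) and Rpl41 (-0.38) were called lower by the least. Rps27, Rpl30 and Rpl34 did not pass (0.39, 0.46 and 0.84, limma adjusted p = 0.45, 0.618 and 0.119). In 70 of the 76 members the group means were ordered synovium, arthritic node, control node from low to high, but the step between the node groups was not past the test for any of them. The share of all genes in that order was not computed. The members share the same libraries and moved together within groups, so their orders are not independent.

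Within each group the members moved together from library to library. Synovial library 1 had the highest synovial value in 71 of the 76 members and synovial library 2 the lowest in 55. Among arthritic nodes library 2 was highest in 60 members, and among control nodes library 2 was highest in 65 and library 3 lowest in 54. Arthritic node libraries 1 and 2 departed from their group mean by length. Over the 76 members, the deviation had a Spearman correlation with the coding length of -0.75 in library 2 and 0.75 in library 1. The deviations of a gene from its group mean sum to 0, so the correlations are not independent and do not single out a library. The 25 members with under 400 coding bases, such as Rps29, Rps21, Rps28 and Rpl38, lay 0.19 above the group mean in arthritic node library 2 (median, log2), and the 51 longer members 0.05 above it. In arthritic node library 1 the medians of these classes were -0.12 and -0.001. Among 2538 other genes with a mean of at least 1000, arthritic node library 2 had medians of 0.03 for the short and 0.02 for the longer ones. The tissue change was close in both length classes, with a median of -0.64 and 20 of 25 called lower for the short members and -0.74 and 50 of 51 for the longer ones. Without arthritic node library 2 the medians were -0.60 and -0.70, with 17 and 47 called lower.

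**Figure D4:**
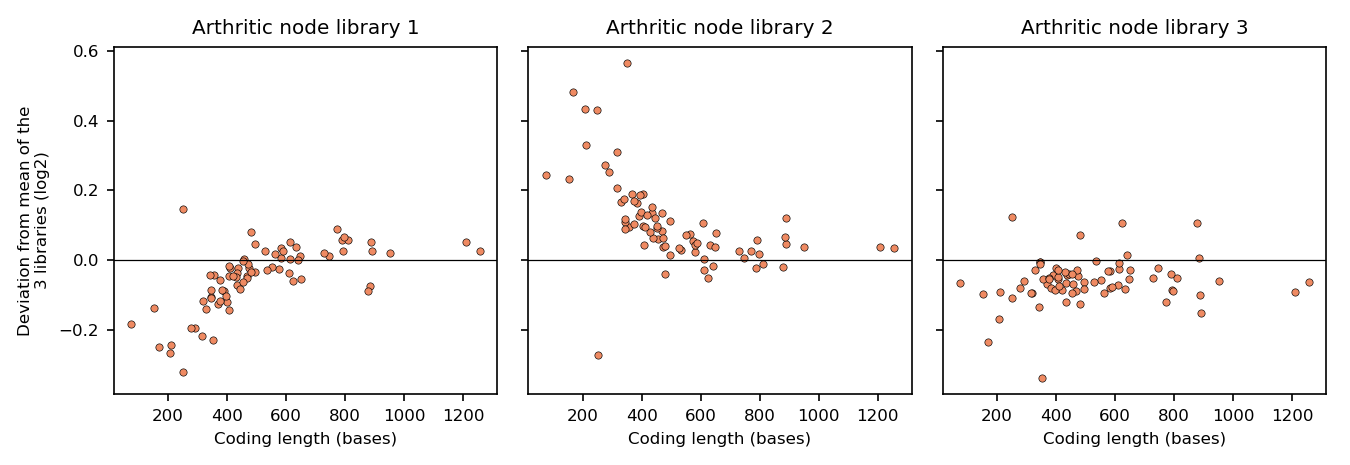
Deviation of each of the 76 ribosomal protein genes from the mean of the 3 arthritic node libraries (log2, vertical axis) against its coding length in bases, one panel per library. In library 2 the short genes lie above the mean, in library 1 mostly below it, and library 3 shows no such slope.

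The paralogs set aside by name were measured too, 5 of the 8 above the filter. Rpl22l1, a paralog of Rpl22, averaged 1504 ± 207 normalised counts in synovium, against 1926 ± 56.1 in arthritic nodes and 2133 ± 156 in control nodes (SD, n = 3 each) and was lower in synovium than in arthritic nodes (-0.37, limma adjusted p = 0.0406). Rpl36al (-0.41, limma adjusted p = 0.0573), Rpl7l1 (-0.31, limma adjusted p = 0.0971) and Rps27l (0.37, limma adjusted p = 0.056) did not pass. The fifth, Rps4l, listed under its older symbol, had 6.61, 4.70 and 37.1 in synovium, against 10.4, 7.70 and 11.4 in arthritic nodes and 14.1, 4.51 and 19.2 in control nodes. Rps27l, which p53 induces in human cells, had a mean of 1731 ± 246 in synovium, against 1338 ± 128 in arthritic nodes and 1239.7 ± 45.7 in control nodes (SD, n = 3 each), its libraries standing apart as 1459 to 1937 in synovium against 1197 to 1447 in arthritic nodes. Fau, which encodes a ubiquitin-like fusion to a ribosomal protein and falls outside the naming rule, was lower in synovium (-0.37, limma adjusted p = 0.0256).

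Other genes of translation were read from lists alongside the members, against the 15.9% of all genes called lower and 17.9% called higher in the tissue comparison. Of 76 nuclear genes for mitochondrial ribosomal proteins, 32 were called lower and 4 higher in synovium than in arthritic nodes, with a median log2 fold change of -0.43, and examples are Mrpl30 (-0.84), Mrpl23 (-0.86), Mrps34 (-0.76) and Mrps26 (-0.72). Of 8 elongation factor genes 5 were lower and none higher, with a median of -0.59; Eef1g, a subunit of the elongation factor that delivers transfer RNAs, changed by -1.12 and Eef1a1, which carries them, by -0.55. Of 34 initiation factor genes 8 were lower and 3 higher, with a median of 0.00; Eif1, which guards start codon choice, was at 1.15, and Eif3k and Eif3e, of the scaffold that binds the small subunit, were at -0.56 and -0.52. The 53 genes of ribosome assembly had 19 lower and 2 higher and a median of -0.31, among them Dkc1 (-1.56), which modifies ribosomal RNA, Wdr12 (-1.86) and Rrp9 (-1.27). Of 10 other genes known for terminal oligopyrimidine tracts 5 were lower and 2 higher, with Npm1 at -0.75 and Gnb2l1 at -0.49, but Tpt1 at 0.59 and Vim at 0.89. Of 29 regulators of translation and ribosome production 4 were higher (13.8%) and 3 lower (10.3%), shares below those of all genes. The higher ones were Mxi1 (4.46), Mxd1 (3.63), Rheb (1.80) and Mknk2 (1.37), and Myc, at -0.75, was among the lower ones. Mxd1 and Mxi1 encode repressors that compete with Myc for its partner Max. Under CPM scaling (all libraries brought to one total), which moved the median of all genes to -0.31, the medians of the initiation factors and of the regulators (0.16 as deposited) were -0.31 and -0.15. None of these lists had a gene that passed the disease comparison in this fit.

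**Figure D5:**
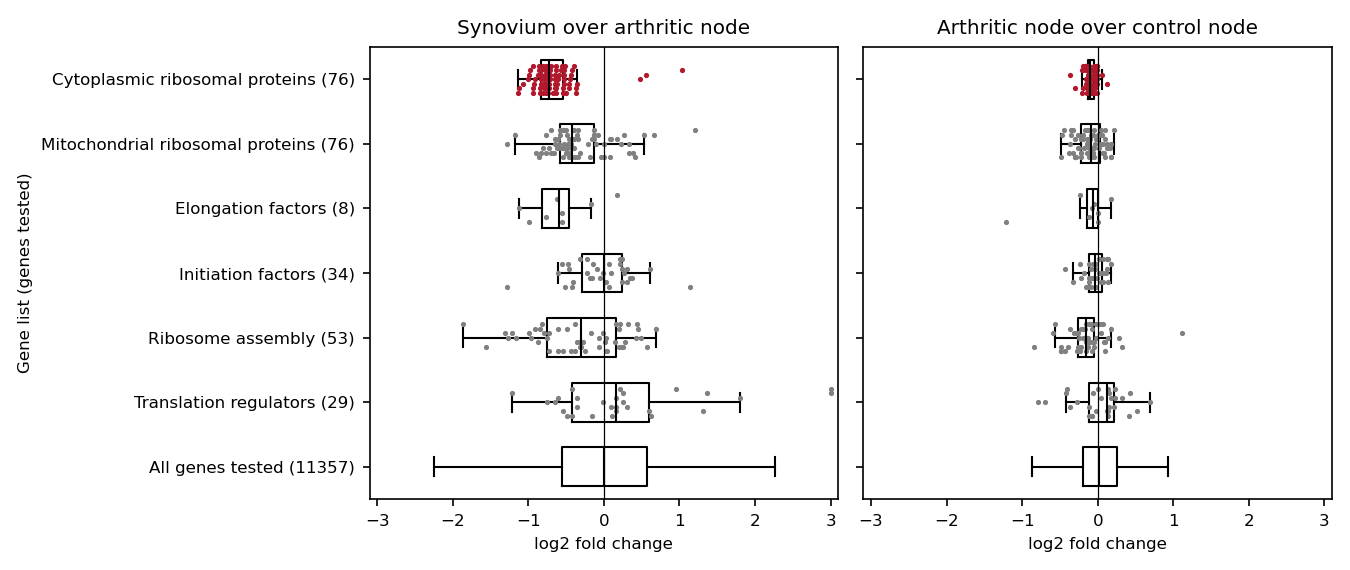
Log2 fold change of the ribosomal protein genes (red) and of 5 other gene lists (grey points, number of genes tested in brackets) beside all 11357 genes tested, for synovium over arthritic node (left) and arthritic node over control node (right). Boxes give the median and quartiles, whiskers reach the last value within 1.5 box lengths, and values beyond 3, those of Mxd1 and Mxi1, are drawn at 3. On the left the members lie between -1.14 and 1.03 around -0.72, and on the right they lie near 0.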

How the data were processed

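RNA-seq of 9 Treg libraries was analysed. Per the submitters' processing notes, HISAT2, HTSeq, DESeq2 and the mm10 genome were used; versions, the annotation and the strand setting are not given in the sources used here. Libraries were made with a directional kit, per the labels' protocols. The deposited signal values are read counts per gene, each library divided by its own size factor: 100% of the nonzero values were whole multiples of a constant within 0.01, in each library, so whole reads were recovered (11300406 to 12855435 per library; 3 reads correspond to 2.61 to 3.52 normalised counts). No other columns of per-sample values were present. In the authors' deposited table of synovial against arthritic node Tregs, per the file headers, are a mean signal, log2 fold changes with standard errors (log2 too), the Wald statistic as a score, raw p-values and adjusted ones. Its direction was settled by a DESeq2 rerun, which matched it within 1.36e-06.

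The tests were run with limma 3.58.1 in R 4.3.3 (lmFit, eBayes, trend on) on log2(normalised value + 1). The 11357 genes that averaged at least 10 entered the fit of all 9 libraries. Tests were two-sided, p was adjusted by Benjamini-Hochberg across those genes, and the threshold was 0.05. Fold changes are on that scale, which understates the change of low genes. The script was tested on simulated data. Alternatives were edgeR 4.0.16 (quasi-likelihood) and DESeq2 1.42.0 on the recovered reads, pseudocounts of 0.5 and 5, no filter or a mean of 50, TMM, quantile and CPM scaling, no trend, fits of 2 groups, a replicate block and leaving out each library. Synovial and node libraries with the same mouse number come from the same mouse, per the titles. Residuals of same-numbered libraries correlated at 0.02, 0.05 and 0.09 across genes, and those of unlike numbers at -0.09 to 0.04. Numbers of arthritic and control mice name different animals. Only 3 libraries a group were available. In the fit of all 9 libraries, p-values measure the spread between libraries within the 3 groups, without regard to the pairing by mouse.

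Members and lists were chosen with earlier results of these data known. Named members were the 6 largest and 6 smallest log2 fold changes of each comparison, the 5 highest levels per kilobase, genes of set roles, and X-linked genes. In each other list, up to 4 called genes by adjusted p were named. Markers of other cells and members outside this rule, such as Rps12 and Rpl4, were named after their values were seen. Some genes that the rule would name are not reported here. Unique sequence was computed from 50-base windows of 1 GENCODE vM21 transcript per gene against all transcripts (GRCm38, the files' build).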

Additional observations from a re-analysis of the deposited data

How the results depend on the processing

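The tissue decrease was called for 61 of the 70 members under each of the 18 alternatives, and the other 9 members lost the call under at least 1; the direction of the 70 did not change. Between 64 and 73 members were called lower. For synovial against control node Tregs, 66 of 73 calls were kept under each alternative. CPM scaling moved the median of all genes to -0.31 in the tissue comparison and -0.29 against control nodes, and quantile scaling to -0.12 and -0.13. The members' medians were -1.03 and -1.10 with CPM and -1.03 and -1.09 with quantile scaling, so that the difference from the median gene was -0.72 and -0.91 in the tissue comparison. Of all genes, 1379 were called higher and 3324 lower with CPM, 1711 and 2344 with quantile scaling, and 2034 and 1810 as deposited. The other lists had 133 genes called in the tissue comparison with CPM and 57 to 80 with a library left out. One member, Rpl34, was called higher without the trend, and 0 to 1 with a library left out.

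In the disease comparison 0 members were called throughout, while all genes called numbered 39 as reported, 10 without the trend, 0 with 2 groups in the fit, 173 with DESeq2 and 0 to 66 with a library left out. The other lists had 1 call with quantile scaling, 2 with DESeq2 and 0 to 1 with a library left out. Directions near 0 turned: Rpl19 was at 0.0040 with quantile scaling, and with a library left out Rpl19 ranged from -0.070 to 0.057, Rpl18 from -0.045 to 0.050, Rplp2 from -0.084 to 0.035, Rpl13a from -0.070 to 0.046 and Rps29 from -0.19 (without arthritic node library 2) to 0.18.

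With the replicate block, 65 members were called lower in the tissue comparison, where the numbers pair samples of a mouse, and 0 of all genes were called in the disease comparison, where they do not. Against the median member, 1 member was called below without the trend or with 2 groups, 0 below and 2 above with the block, and 1 to 4 below and 2 to 6 above with a library left out. The causes of these changes were not tested. Precision is limited by 3 libraries a group, by reads shared with pseudogenes, and by low counts for Rpl34, Rps27 and Rpl30.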
